A study of Mus musculus with 6 samples.

Results

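The genes described here encode 10 inhibitors of MyoD, the transcription factor that commits cells to the muscle lineage: Id1, Id2, Id3, Twist1, Twist2, Msc, Mdfi, Snai1, Snai2 and Zeb1. They were listed by name for what their products are known to do, with earlier results of these data known, and are 10 of the 17558 genes measured. All 10 were listed in the expression data, and 9 passed the filter on low counts; Twist1 did not. RNA was sequenced from C2C12 cells, an immortalised line of mouse myoblasts, in 6 libraries taken 48 h after differentiation was induced in low-serum medium. All cells stably carried a short hairpin RNA construct. The control group (shScr, 2 libraries) carried a scrambled hairpin, and the other groups carried a hairpin aimed at the Pkm1 isoform (shPkm1, 2 libraries) or the Pkm2 isoform (shPkm2, 2 libraries) of the pyruvate kinase gene Pkm. Whether a line was 1 clone or a pool, and how many hairpins were used for each target, is not given in the sources used here, nor is it stated that the 2 libraries of a group came from separate cultures. The p-values then measure only the spread between libraries, which may be technical.

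MyoD and its relatives Myf5, myogenin and Myf6 are basic helix-loop-helix proteins that pair with E-proteins (the products of Tcf3, Tcf4 and Tcf12) and bind E-boxes, short DNA motifs read CANNTG, at muscle genes. Id proteins have the helix-loop-helix but no DNA-binding region, so they hold E-proteins in pairs that cannot bind DNA, and their genes are classic targets of bone morphogenetic protein (BMP) signals. Twist proteins and musculin (Msc) compete for E-proteins and E-boxes, Mdfi (I-mfa) binds myogenic factors and keeps them from the nucleus and from DNA, and Snail and Zeb proteins are repressors that occupy E-boxes of the CAGGTG kind.

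The libraries were of even depth, between 18216896 and 19796036 estimated counts. Across genes, replicates correlated at r of 0.988 to 0.994 in log2 CPM (counts scaled to library size, here with TMM factors that balance library composition) and libraries of different groups at 0.860 to 0.921. These are correlations across genes, which are not independent replicates. The 2 shScr libraries differed most from each other, with a chi-square per degree of freedom of 31.0 against 6.01 and 6.67 in the other groups. The Pkm1 isoform was lower than in shScr in shPkm1 (log2 fold change -1.66, edgeR adjusted p 0.00272) and also in the shPkm2-labelled libraries (-1.58, adjusted p 0.00124). The Pkm2 isoform was not lower in the libraries that carry its name (0.63, adjusted p 0.0656), so the libraries labelled shPkm2 are called by their label throughout. The myoblast markers Myod1, Des and Cdh15 were present in all 6 libraries, and the markers of endothelial cells summed to at most 0.41 TPM (a transcript level scaled to transcript length).

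Upstream sequences were taken from RefSeq for the build GRCm38.p6. Of the 10 genes, 6 (Id2, Id3, Mdfi, Snai1, Twist1 and Twist2) matched an entry, and Id1, Msc and Snai2 did not. Zeb1 was left out before the matching, and its window is not reported here. The 250 bases before the start of transcription are shown, 5′ to 3′ on the strand of the gene, for 3 genes that were higher in both Pkm hairpin groups than in shScr and for Snai1, which was higher in shPkm1 than in either other group. They cover chr12:25096093-25096342 on the minus strand for Id2, and on the plus strand chr4:136143572-136143821 for Id3, chr1:91801211-91801460 for Twist2 and chr2:167537945-167538194 for Snai1. Capitals mark matches, on either strand, to the E-box CANNTG, the GC-rich Smad motif GGCGCC and the CCAAT box.
Id2: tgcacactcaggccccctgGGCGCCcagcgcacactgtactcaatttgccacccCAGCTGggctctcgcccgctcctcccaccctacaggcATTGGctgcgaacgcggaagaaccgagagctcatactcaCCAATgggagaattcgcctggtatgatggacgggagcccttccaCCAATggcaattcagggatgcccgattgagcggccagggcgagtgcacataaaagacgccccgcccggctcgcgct
Id3: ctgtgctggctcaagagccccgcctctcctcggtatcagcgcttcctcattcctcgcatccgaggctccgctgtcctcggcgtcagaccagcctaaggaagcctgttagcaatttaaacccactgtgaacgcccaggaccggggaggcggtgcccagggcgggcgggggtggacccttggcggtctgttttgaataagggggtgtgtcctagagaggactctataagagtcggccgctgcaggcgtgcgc
Twist2: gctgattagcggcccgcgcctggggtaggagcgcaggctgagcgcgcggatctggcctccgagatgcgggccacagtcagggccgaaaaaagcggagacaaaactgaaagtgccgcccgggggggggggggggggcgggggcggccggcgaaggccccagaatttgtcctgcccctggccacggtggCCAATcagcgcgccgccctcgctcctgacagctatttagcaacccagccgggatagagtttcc
Snai1: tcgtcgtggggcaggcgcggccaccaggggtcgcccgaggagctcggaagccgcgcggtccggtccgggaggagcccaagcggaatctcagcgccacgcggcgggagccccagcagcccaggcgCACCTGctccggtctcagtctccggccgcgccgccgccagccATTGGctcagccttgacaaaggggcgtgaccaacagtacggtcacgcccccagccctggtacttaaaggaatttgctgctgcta

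The Id2 window held 1 E-box beginning 196 bases before the start, 1 GGCGCC at 231 bases and 3 CCAAT boxes at 159, 120 and 76 bases. The Snai1 window held a CCAAT box at 84 bases and, at 126 bases, an E-box that reads CAGGTG on the opposite strand, the form to which Snail proteins themselves bind. The Twist2 window held 1 CCAAT box, at 63 bases, and no E-box, and none of these motifs was found in the Id3 window. Of 32851 such windows of 27025 genes, 66.2% held CANNTG, 17.2% held CAGGTG (which is also counted under CANNTG), 9.59% held GGCGCC and 33.8% held CCAAT. The palindromes GTCTAGAC (0.167% of windows) and TGACGTCA (1.55%) were also searched. With E-boxes in most windows of any gene, the matches describe the sequence and mark no site in use.

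Among the 9 tested inhibitors, 8 differed between shPkm1 and shScr at an adjusted p under 0.05 in edgeR's quasi-likelihood test, 7 of them higher and 1 lower. Of all 12643 genes tested, 63.1% differed, 31.8% higher and 31.4% lower. The median log2 fold change of the 9 genes was 1.19, beside 0.00 for all tested genes. Between the shPkm2-labelled libraries and shScr, 8 of the 9 differed, 5 higher and 3 lower, against 68% of all genes, 33.9% higher and 34.2% lower, and the median was 1.59 beside 0.01. Between the shPkm2-labelled libraries and shPkm1 all 9 differed, 5 higher and 4 lower, against 53% of all genes, 25.7% higher and 27.3% lower, and the median was 0.61 beside 0.00. Most genes therefore differed in each comparison, and the number of inhibitors that differed is read against that background. By direction, the 3 Id genes and Twist2 were higher in shPkm1 than in shScr and higher again in the shPkm2-labelled libraries, whereas Mdfi and Snai1 were highest in shPkm1 and lowest in the shPkm2-labelled libraries, although the call of Snai1 between the latter and shScr was lost with library totals and with limma on TPM. In a fit of single transcripts, given after the genes, Id3 and Id1 had no call in shPkm1, and Id3, Id2, Twist2 and Snai2 had none between the Pkm hairpin groups. The comparisons with shScr share the same control libraries. Sizes of change in the following are log2 fold changes from edgeR on TMM-scaled counts, unless a fold or another tool is named.

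**Figure D1:**
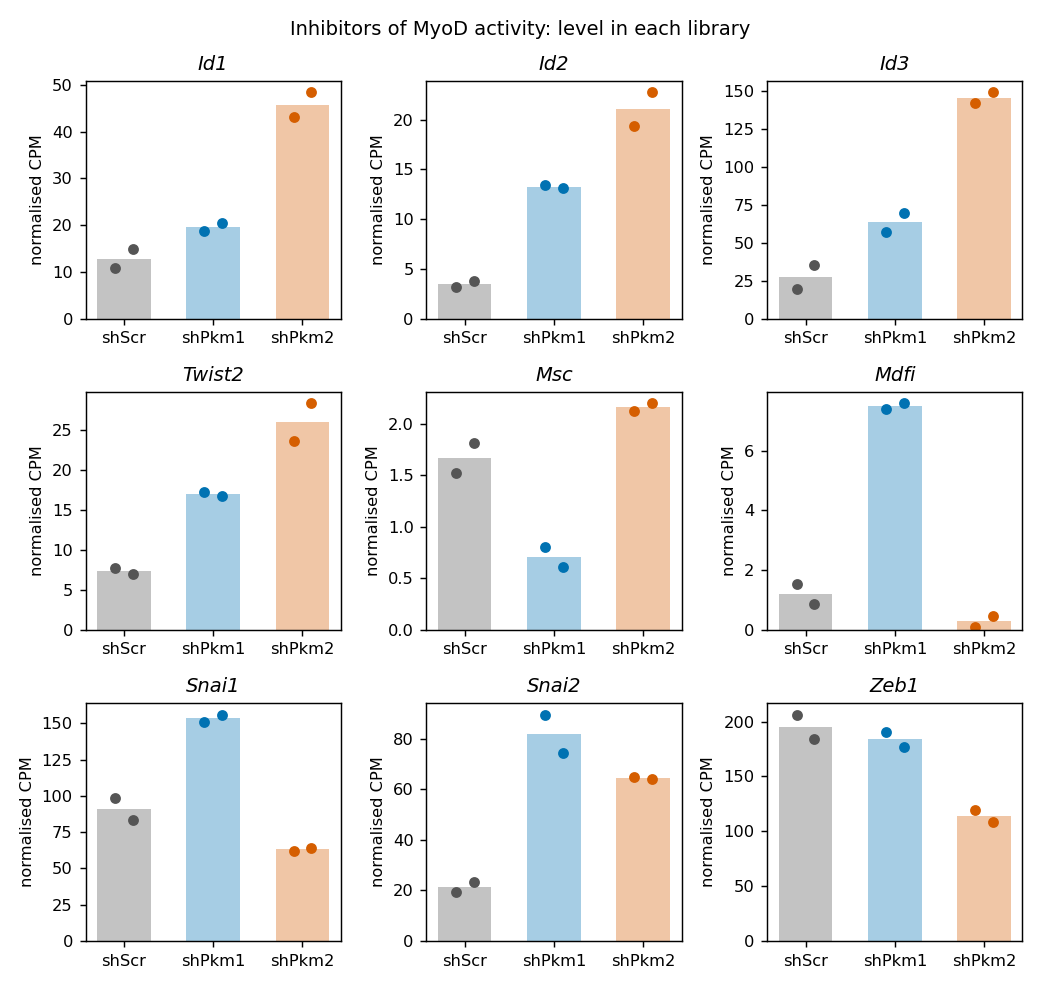
Normalised CPM (vertical axes, from 0) of 9 inhibitors of MyoD by group (horizontal axes), with a point for each library and a bar for the mean of 2. Id1, Id2, Id3 and Twist2 step up from shScr through shPkm1 to shPkm2, Mdfi and Snai1 peak in shPkm1, and Zeb1 is lowest in shPkm2. Twist1, with at most 1 count in a library, is not drawn.

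Levels can be compared between genes only in TPM. In shScr the most abundant inhibitor was Snai1 at 79.7 ± 2.58 TPM (SD, n = 2), followed by Zeb1 at 49.05 ± 0.0424 and Id3 at 43.9 ± 21.4, whose libraries lay on either side of those of Zeb1. Id1 (20.5 ± 6.31) and Snai2 (15.1 ± 3.17) overlapped each other, Twist2 (7.89 ± 0.156) and Id2 (4.02 ± 0.806) were lower, and Msc (1.39 ± 0.240) and Mdfi (1.12 ± 0.431, or 0.81 and 1.42) overlapped near the bottom. In shPkm1 Snai1 was still first, at 177 ± 2.51 TPM, and no neighbours in the order overlapped: Id3 (129 ± 13.9), Snai2 (75.7 ± 12.7), Zeb1 (60.9 ± 5.47), Id1 (40.4 ± 1.13), Twist2 (24.1 ± 1.40), Id2 (19.8 ± 1.01), Mdfi (9.33 ± 0.0990) and Msc (0.755 ± 0.191). In the shPkm2-labelled libraries Id3 and Id1 took the top of the order, and Id2 was the seventh. Id3 reached 309 ± 1.82 TPM and Id1 99.1 ± 3.91, ahead of Snai1 (76.1 ± 1.22) and Snai2 (62 ± 3.01). Zeb1 (39.7 ± 4.24) and Twist2 (38.4 ± 3.36) overlapped, Id2 stood at 32.8 ± 2.45, Msc at 2.34 ± 0.0849 and Mdfi at 0.355 ± 0.304. Summed over the 10 genes the level was 202 and 243 TPM in shScr, 543 and 531 in shPkm1, and 661 and 660.0 in the shPkm2-labelled libraries.

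The Id genes rose in both Pkm hairpin groups. Id3 (chr4:136143822-136145392), the most abundant of them, had 19.8 and 35.7 normalised CPM in shScr, 57.1 and 69.9 in shPkm1, and 142 and 149 in the shPkm2-labelled libraries. No group overlapped another, although the shScr libraries were far apart. Set against shScr it rose on the log2 scale by 1.19 (SE 0.195, adjusted p 0.000157) for shPkm1 and 2.38 (SE 0.196, adjusted p 1.96e-07) for the shPkm2-labelled libraries, a 5.22-fold difference in the latter. The shPkm2-labelled libraries also exceeded shPkm1, by 1.20 (SE 0.184, adjusted p 0.000111).

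Id1 (chr2:152736251-152737410) had 10.8 and 14.8 CPM in shScr, 18.6 and 20.4 in shPkm1, and 43.2 and 48.4 in the shPkm2-labelled libraries. The groups again kept apart. Against shScr the log2 fold change was 0.60 in shPkm1 (SE 0.147, adjusted p 0.00304), or 0.40 (adjusted p 0.0139) without shScr replicate 1, the lower of the controls. It was 1.83 in the shPkm2-labelled libraries (SE 0.141, adjusted p 1.02e-07), and 1.23 between the Pkm hairpin groups (SE 0.134, adjusted p 4.97e-06). The transcript NM_010495.3 held between 91.0% and 97.8% of the Id1 counts in every library.

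Id2 (chr12:25093799-25096092) had 3.23 and 3.79 CPM in shScr, 13.4 and 13.1 in shPkm1, and 19.3 and 22.8 in the shPkm2-labelled libraries. Both shScr libraries lay far below those of either Pkm hairpin group. The rise was 3.77-fold in shPkm1 (log2 fold change 1.91, SE 0.165, adjusted p 5.39e-07) and 5.97-fold in the shPkm2-labelled libraries (2.58, SE 0.159, adjusted p 1.11e-08). The Pkm hairpin groups differed by 0.66 (SE 0.132, adjusted p 0.000887). Id4, the remaining gene of the family, had 0 to 2 counts in every library and was not tested.

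The 3 Id genes together made 48.4 and 88.7 TPM in shScr, 179 and 199 in shPkm1, and 438 and 445 in the shPkm2-labelled libraries. Id3 held the largest share of that sum in all 6 libraries, from 59.6% to 70.9%. The share of Id1 was 33.3% and 28.2% in shScr and between 20.7% and 22.9% in the other 4 libraries; Id1 had the smallest log2 fold change of the 3 in shPkm1 (0.60, against 1.19 for Id3 and 1.91 for Id2). Mki67, a gene of dividing cells, moved with the Id genes, at 67.7 and 81.0 CPM in shScr, 203 and 206 in shPkm1, and 613 and 501 in the shPkm2-labelled libraries. In these bulk libraries, a change in the number of cells of a kind and a change in RNA per cell cannot be told apart, and the part of cell division in the Id levels was not tested.

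Twist2 (chr1:91801461-91848034), a bHLH repressor of mesenchymal cells, followed the Id genes. It had 7.67 and 6.95 CPM in shScr, 17.3 and 16.7 in shPkm1, and 23.6 and 28.3 in the shPkm2-labelled libraries, with no overlap between groups. It rose by 1.22 (SE 0.143, adjusted p 8.43e-06) for shPkm1 and by 1.83 (SE 0.139, adjusted p 8.64e-08) for the shPkm2-labelled libraries, and the Pkm hairpin groups differed by 0.61 (SE 0.125, adjusted p 0.00106). Its paralog Twist1 (chr12:33957671-33959831) had 1 count in 1 shPkm1 library and 0 in the other 5, so that no difference was detectable at this depth.

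Msc (chr1:14753344-14756089), which encodes musculin, was scarce, with 24 and 32 counts in shScr, 15 and 12 in shPkm1, and 45 and 46 in the shPkm2-labelled libraries. It was the single inhibitor that fell in shPkm1 while the others rose or showed no call (log2 fold change -1.24, SE 0.344, adjusted p 0.00658). That call was lost without shPkm1 replicate 2 (-1.05, adjusted p 0.0691). Against shScr the shPkm2-labelled libraries gave 0.37 (SE 0.289, adjusted p 0.272), with both libraries above both controls, and limma on log2(TPM + 1) passed the threshold there (0.49, adjusted p 0.00639). Compared directly, Msc was 3.06-fold higher in the shPkm2-labelled libraries than in shPkm1 (1.61, SE 0.324, adjusted p 0.000949).

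Mdfi (chr17:47815328-47834691) had the widest spread of the inhibitors between groups. It had 24 and 15 counts in shScr, 139 and 150 in shPkm1, and 2 and 10 in the shPkm2-labelled libraries, which is 1.52 and 0.847, 7.40 and 7.58, and 0.0941 and 0.477 CPM. It was 6.37-fold higher in shPkm1 than in shScr (log2 fold change 2.67, SE 0.336, adjusted p 1.60e-05). It was lower in the shPkm2-labelled libraries than in shScr (log2 fold change -2.02, SE 0.534, adjusted p 0.00445), and this value was -1.28 (adjusted p 0.0480) without shPkm2 replicate 1 and -3.54 (adjusted p 0.000897) without shPkm2 replicate 2. Between the Pkm hairpin groups the difference was -4.69 (SE 0.408, adjusted p 6.06e-07), or -3.96 without shPkm2 replicate 1 and -6.22 without shPkm2 replicate 2. Its counts were spread over several of 7 transcripts, and the division differed between libraries of a group; NM_001276390.1 and NM_010783.3 held most of the counts in shPkm1. Its relative Mdfic rose in both comparisons with shScr, from 20.4 and 16.5 CPM to 46.6 and 42.1 in shPkm1 (1.27, adjusted p 1.43e-06) and 43.2 and 41.7 in the shPkm2-labelled libraries (1.20, adjusted p 1.40e-06), and between those groups it gave -0.06 (adjusted p 0.660).

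Of the E-box repressors, Snai2 (chr16:14705852-14709395), which encodes Slug, rose in both Pkm hairpin groups. It had 19.4 and 23.2 CPM in shScr, 89.5 and 74.4 in shPkm1, and 64.8 and 63.9 in the shPkm2-labelled libraries. The log2 fold change was 1.94 (SE 0.124, adjusted p 3.69e-08) for shPkm1 and 1.59 (SE 0.123, adjusted p 1.07e-07) for the shPkm2-labelled libraries. The Pkm hairpin groups differed little from each other (-0.35, SE 0.114, adjusted p 0.0200), and this call was lost with library totals in place of TMM factors (-0.22, adjusted p 0.164), with limma on TPM (-0.27, adjusted p 0.160) and on leaving out shPkm1 replicate 1 (-0.22, adjusted p 0.224), shPkm2 replicate 1 (-0.37, adjusted p 0.0861) or shPkm2 replicate 2 (-0.35, adjusted p 0.0987).

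Snai1 (chr2:167538195-167542814), which encodes Snail, was highest in shPkm1. It had 98.5 and 83.0 CPM in shScr, 151 and 156 in shPkm1, and 62.0 and 64.1 in the shPkm2-labelled libraries. It rose in shPkm1 (0.76, SE 0.104, adjusted p 3.51e-05), and the shPkm2-labelled libraries were 2.43-fold lower than shPkm1 (-1.28, SE 0.105, adjusted p 3.41e-07). Its fall against shScr (-0.52, SE 0.106, adjusted p 0.000621) depended on the scaling: it was -0.20 with library totals (adjusted p 0.103) and -0.06 with limma on log2(TPM + 1) (adjusted p 0.569). In TPM the shPkm2-labelled libraries (75.3 and 77.0) lay just under those of shScr (77.9 and 81.5).

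Zeb1 (chr18:5591327-5775468) was lowest in the shPkm2-labelled libraries, with 206 and 184 CPM in shScr, 190 and 177 in shPkm1, and 120 and 109 in the shPkm2-labelled libraries. It fell there against shScr (-0.78, SE 0.104, adjusted p 2.01e-05), or by -0.45 with library totals and -0.30 with limma on log2(TPM + 1), still past the threshold, and against shPkm1 (-0.69, SE 0.104, adjusted p 9.54e-05). The libraries of shPkm1 and shScr overlapped (log2 fold change -0.09, SE 0.103, adjusted p 0.469). That sign depends on the scaling: with library totals it was 0.11 (adjusted p 0.383), and with limma on log2(TPM + 1) 0.30, past the threshold (adjusted p 0.0403). The related Zeb2, which is outside the 10 genes, rose in both Pkm hairpin groups, from 37.4 and 37.4 CPM in shScr to 65.1 and 62.6 in shPkm1 (0.77, adjusted p 2.57e-05) and 62.8 and 55.4 in the shPkm2-labelled libraries (0.66, adjusted p 7.18e-05).

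The scalings differ for all genes and not only for these. Against TMM, library totals moved the median of all tested genes by 0.19 in shPkm1, 0.32 in the shPkm2-labelled libraries and 0.13 between them on the log2 scale, and limma on log2(TPM + 1), a scale that understates changes of low genes, by 0.31, 0.36 and 0.06. The share of calls that were higher was 50.3%, 49.8% and 48.4% with TMM, 65.8%, 69.3% and 61.3% with library totals, and 78.1%, 75.7% and 53.8% with limma. The directions of the Id genes, Twist2, Snai2 and Mdfi did not depend on this choice in any of the 3 comparisons.

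The edgeR fit of single transcripts, used above for the Pkm isoforms, made fewer calls. Only transcripts of the inhibitors with a mean of at least 50 counts were followed in it. They belonged to 7 inhibitors, all but Twist1, Msc and Mdfi. For shPkm1 against shScr 4 of the 7 had a called transcript, where the fit of genes called 6 and where 10.8% of all 33433 tested transcripts were called. Id3, which has 1 transcript, gave 1.22 (adjusted p 0.0789) and the main transcript of Id1 0.62 (adjusted p 0.119). For the shPkm2-labelled libraries against shScr all 7 were called in both fits, beside 17.2% of all transcripts. Between the Pkm hairpin groups Id1, Snai1 and Zeb1 were called, 3 of the 7 called by the fit of genes, beside 7.91% of all transcripts. Id3 gave 1.19 (adjusted p 0.0978), Id2 0.66 (adjusted p 0.130), Twist2 0.61 (adjusted p 0.0990) and Snai2 -0.35 (adjusted p 0.242). The inhibitor counts are of genes with any called transcript among those kept, and the shares are of single transcripts of any tested count. The shares are therefore not a like background for these counts.

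**Figure D2:**
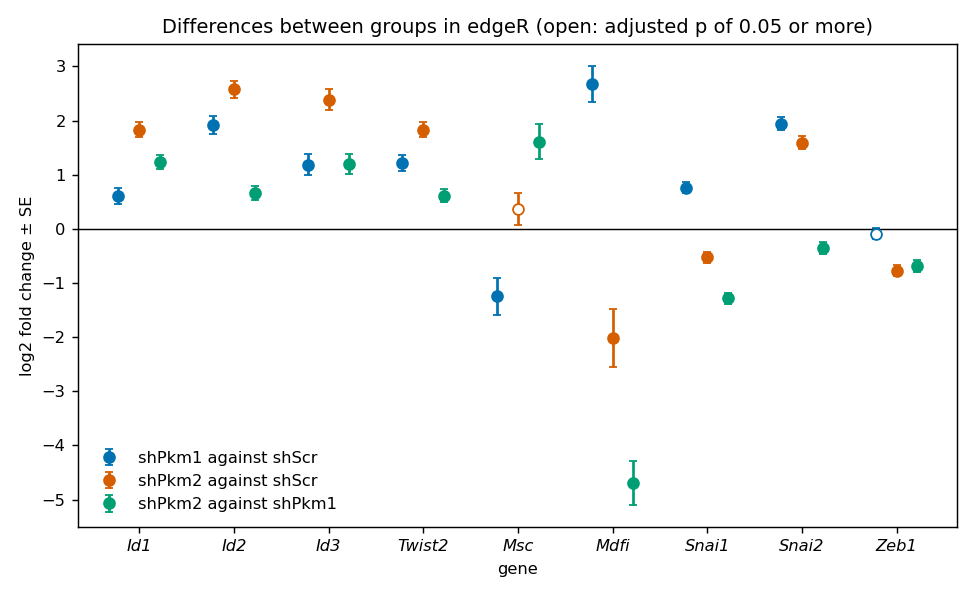
Log2 fold change with its SE (vertical axis, edgeR) of 9 inhibitors of MyoD (horizontal axis) in 3 comparisons, shown by colour. Filled points have an adjusted p under 0.05; the open points are Msc for shPkm2 against shScr (0.37) and Zeb1 for shPkm1 against shScr (-0.09), and Mdfi reaches from 2.67 to -4.69.

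Marker lists of other cell types moved with parts of this pattern. The fibroblast markers Pdgfra, Dcn, Lum, Col1a1, Col3a1, Thy1 and Tcf7l2 summed to between 1039 and 1274 TPM in shScr, 5462 and 5634 in shPkm1, and 767 and 895 in the shPkm2-labelled libraries, which is the order of Mdfi and of Snai1. In shPkm1 Col1a1 (2568 TPM) and Col3a1 (2919 TPM) made up most of the sum. Of the 7 fibroblast markers, 5 were tested: 5 were higher in shPkm1 than in shScr, and 2 were higher and 3 lower in the shPkm2-labelled libraries. The 2 were Pdgfra (1.3, 8.4 and 9.8 TPM in shScr, shPkm1 and the shPkm2-labelled libraries) and Tcf7l2 (2.3, 8.6 and 8.5), which did not follow the order of the sum. Of all tested genes 31.8% were higher and 31.4% lower in shPkm1, and 33.9% and 34.2% in the shPkm2-labelled libraries, which is the background for the few tested markers of each list. Thy1 and Lum, which mark fibroblasts, had 0 to 5 counts in every library. The part of these genes' source in the levels of Mdfi, Snai1 and Snai2 was not tested. Adipocyte markers summed to 7.63 and 8.03 TPM in shScr, 21.6 and 22.7 in shPkm1, and 23.1 and 19.8 in the shPkm2-labelled libraries, higher in both Pkm hairpin groups as the Id genes were. Of 6, 2 were tested, Pparg and Cebpa; both were higher in shPkm1 and Cebpa also in the shPkm2-labelled libraries (1.22 and 1.15), while Adipoq, Plin1, Fabp4 and Lep had 0 to 7 counts. Osteoblast markers summed to 43.8 and 52.6 TPM, 28.5 and 24.5, and 27.2 and 24.6; of the 3 tested of 7, Runx2 rose in both (1.26 and 1.27), Bglap2 fell in both (-2.56 and -2.57) and Alpl had no call, and Ibsp and Dlx5 were at 0. Their part in the levels of the Id genes and Twist2 was not tested. Of the 5 immune markers 2 (Cd68 and Lyz2) were measured, at no more than 4.83 TPM together and 49 counts each in a library. Both were higher in shPkm1 than in shScr, and in the shPkm2-labelled libraries 1 was higher and 1 had no call.

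The summed level of the myogenic factors was lowest where that of the Id genes was highest, and that of the E-protein genes was not. The myogenic factors Myod1, Myf5, Myog and Myf6 summed to 2433 and 2371 TPM in shScr, 1665 and 1665 in shPkm1, and 211 and 220 in the shPkm2-labelled libraries. Myog made up most of the sum in shScr (2089 ± 52.7 TPM, SD, n = 2) and shPkm1 (1434 ± 5.30), whereas Myf5 was highest in the shPkm2-labelled libraries (12.5 ± 1.33, 19.5 ± 1.85 and 56.8 ± 3.68 TPM in the 3 groups) and Myf6 was at most 1.24 TPM. The E-protein genes Tcf3, Tcf4 and Tcf12 summed to 103 and 113 TPM in shScr, 179 and 169 in shPkm1, and 216 and 197 in the shPkm2-labelled libraries. Sums in TPM carry the scaling given above, which on log2(TPM + 1) moved the median of all tested genes by 0.31 and 0.36 against TMM. In TMM-scaled counts Tcf3 was at a mean of 124.5 CPM in both shScr and shPkm1, while Tcf4 and Tcf12 rose. The Id transcript level per E-protein transcript was 0.471 and 0.783 in shScr, 0.997 and 1.18 in shPkm1, and 2.03 and 2.26 in the shPkm2-labelled libraries, without overlap between groups. Per myogenic factor transcript the Id level was 0.0199 and 0.0374, 0.107 and 0.119, and 2.07 and 2.02. These are ratios of RNA levels, with 2 libraries in a group, and no protein was measured.

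**Figure D3:**
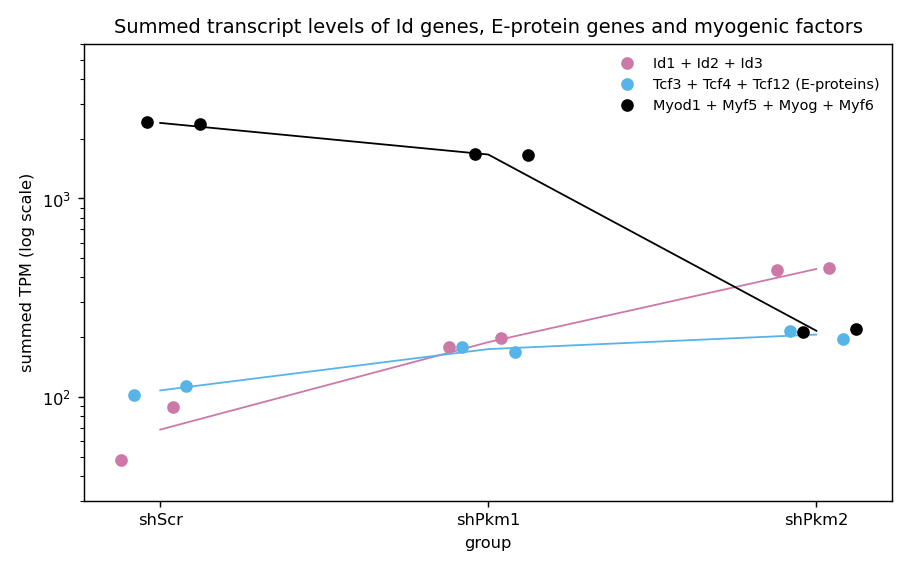
Summed TPM (vertical axis, log scale) of the 3 Id genes, the 3 E-protein genes and the 4 myogenic factor genes in each group (horizontal axis), with a point for each library and lines through the group means. The Id sum lies below the E-protein sum in shScr (48.4 and 88.7 against 103 and 113) and above it in shPkm2 (438 and 445 against 216 and 197), where the myogenic factors have dropped to 211 and 220.

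Of the 9 tested myogenic factors and partners, 2 were higher and 4 lower in shPkm1, and 4 higher and 5 lower in the shPkm2-labelled libraries, with medians of -0.15 and -1.19. Of all tested genes 63.1% and 68% were called, so that the count in shPkm1 lay near the background. Tcf4 (0.61, adjusted p 0.000162) and Tcf12 (0.57, adjusted p 0.000190) were the 2 that rose in shPkm1. In the shPkm2-labelled libraries the rises were in Myf5 (1.74, adjusted p 9.39e-09), Tcf3 (0.61, adjusted p 9.29e-05), Tcf12 (0.38) and Tcf4 (0.37), so that Myf5, a factor of the undifferentiated myoblast, went against Myod1 (-2.22) and Myog (-5.35). Mef2c, a partner of the myogenic factors, changed by -2.25 in shPkm1 on the log2 scale, or by -0.88 without shScr replicate 1, whose 367 counts stood against 97 in the other control. All 10 listed genes of early and late muscle, from desmin (Des) to the contractile and calcium-handling genes, were lower in each comparison, with medians of -1.76, -7.37 and -5.32. Of all tested genes 31.4%, 34.2% and 27.3% were lower in these comparisons. The 10 genes summed to 31948 and 25155 TPM in shScr, 12859 and 13594 in shPkm1, and 1392 and 1303 in the shPkm2-labelled libraries.

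The BMP pathway was examined because Id genes are among its best known targets. Of its 27 listed genes 21 were tested; 13 were higher and 2 lower in shPkm1, and 15 higher and 3 lower in the shPkm2-labelled libraries, with medians of 0.62 and 0.65 (0.65 also when genes with 1 group at the floor take their bound and those with both groups there are left out). Between the Pkm hairpin groups 3 were higher and 7 lower, with a median of -0.15. Of all tested genes 31.8% were higher and 31.4% lower in shPkm1, and 33.9% and 34.2% in the shPkm2-labelled libraries. Between the Pkm hairpin groups the shares were 25.7% and 27.3%. Bmp2, Bmp5, Bmp6, Bmp7, Gdf6 and the antagonist Nog had at most 15 counts in a library and were not tested.

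Among ligands, Bmp4 had 3.99 and 6.04 CPM in shScr, 52.1 and 52.0 in shPkm1, and 10.4 and 10.3 in the shPkm2-labelled libraries. It rose by 3.36 in shPkm1 (SE 0.15, adjusted p 1.70e-09) and by 1.03 in the shPkm2-labelled libraries (adjusted p 0.000116), so its order across the groups was not that of the Id genes. Gdf5 had 67 and 44 counts in shScr, 4 and 4 in shPkm1, and 0 and 3 in the shPkm2-labelled libraries. Of the receptor genes, Bmpr2 rose by 1.25 and 0.79, Acvr1 by 0.62 and 0.59 and Bmpr1a by 0.44 and 0.38 in shPkm1 and the shPkm2-labelled libraries. The signal-carrying Smad5 rose by 1.01 and 0.87.

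The feedback inhibitors Smad6 and Smad7, which BMP and TGF-beta signals themselves induce, rose in both. Smad6 had 63 and 90 counts in shScr, 225 and 240 in shPkm1, and 210 and 216 in the shPkm2-labelled libraries (log2 fold changes 1.40 and 1.15). Smad7 had 4.06 and 4.41, 12.4 and 12.4, and 11.5 and 9.49 CPM (1.55 and 1.31). The Pkm hairpin groups did not differ by a call in Smad6 (-0.26, adjusted p 0.162) or Smad7 (-0.24, adjusted p 0.193). All 3 Id genes did differ by a call in the fit of genes. In the edgeR fit of single transcripts Id3 (adjusted p 0.0978) and Id2 (adjusted p 0.130) did not. The difference between the Id genes and Smad6 or Smad7 was not tested.

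The secreted antagonists split. Follistatin (Fst), which binds activins and some BMPs and is a product of differentiating muscle, had 112 and 123 CPM in shScr, 117 and 107 in shPkm1, and 2.26 and 2.67 in the shPkm2-labelled libraries. Its log2 fold change in the last group was -5.57 against shScr (SE 0.14, adjusted p 4.88e-12) and -5.50 against shPkm1 (adjusted p 1.42e-11), with no call in shPkm1 (-0.07, adjusted p 0.548). Chordin (Chrd) had 32.0 and 27.6 CPM, 12.6 and 13.7, and 1.84 and 1.24, with log2 fold changes of -1.18 in shPkm1 and -4.27 in the shPkm2-labelled libraries. Gremlin (Grem1) rose instead, from 4.56 and 7.34 CPM to 33.1 and 31.3 in shPkm1 (2.42, adjusted p 6.45e-08) and 56.7 and 54.0 in the shPkm2-labelled libraries (3.20, adjusted p 1.58e-09).

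**Figure D4:**
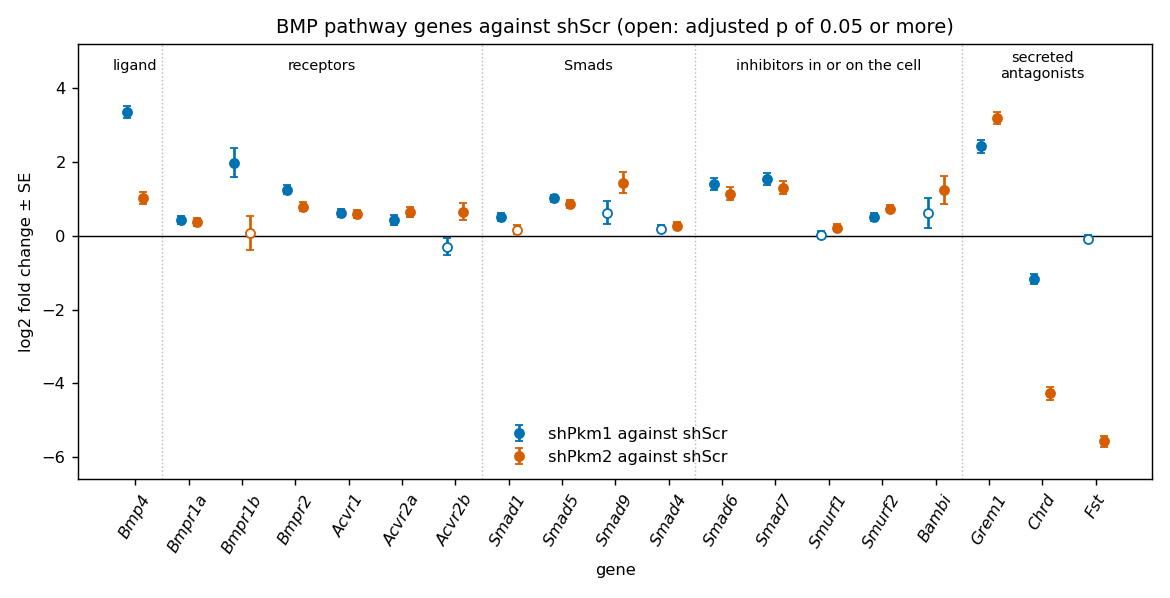
Log2 fold change against shScr with its SE (vertical axis, edgeR) of BMP pathway genes grouped by role (horizontal axis), for shPkm1 and for the shPkm2-labelled libraries. Filled points have an adjusted p under 0.05; Bmp4 is at 3.36 and 1.03, and Chrd (-1.18 and -4.27) and Fst (-0.07 and -5.57) lie farthest below 0 in the shPkm2-labelled libraries. Genes with a group in which no library was above 3 counts, such as Gdf5, are not drawn.

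TGF-beta signals induce Snail genes in many cells. Of 13 listed genes of that pathway, all tested, 9 were higher and 1 lower in shPkm1 (median 0.57), 6 higher and 4 lower in the shPkm2-labelled libraries (median 0.15), and 1 higher and 7 lower between them (median -0.48), beside 31.8% higher and 31.4% lower, 33.9% and 34.2%, and 25.7% and 27.3% of all tested genes. Tgfbi, a known target (2.10, adjusted p 1.51e-05), and the receptor gene Tgfbr3 (1.79, adjusted p 1.68e-05) rose most in shPkm1. The ligand gene Tgfb2 had 48.4 and 59.9 CPM in shScr, 123 and 114 in shPkm1, and 33.8 and 30.8 in the shPkm2-labelled libraries, the CPM order of Snai1. Its fall against shScr (-0.75) was lost with limma on log2(TPM + 1) (-0.27, adjusted p 0.152), and in TPM the libraries of those groups overlapped (12.85 and 17.97 against 13.38 and 11.53). Tgfb3 fell in the shPkm2-labelled libraries, by 1.95 against shScr (adjusted p 3.59e-09) and by 1.97 against shPkm1. Ccn2, another target, was the 1 gene that fell in shPkm1 (-0.25, adjusted p 0.0324), but its call was lost under 10 of 15 alternatives (adjusted p up to 0.630, with library totals), and its sign was reversed with limma on log2(TPM + 1) (0.13, adjusted p 0.308).

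Genes on which Snail and Zeb proteins are known to act in epithelia were largely silent. Epcam, Esrp1 and Ovol1 had 0 counts in all 6 libraries, which allows up to 3 counts in each, and Cdh1, the textbook Snail target, had 0 to 6. Of the 6 tested genes of the epithelial and mesenchymal list, 4 were higher and 1 lower in shPkm1, and 1 higher and 3 lower in the shPkm2-labelled libraries, where 63.1% and 68% of all tested genes were called. Vim, which encodes vimentin, rose in both (0.74 and 1.26) and Cdh2, which encodes N-cadherin, fell in both (-0.80 and -0.54); the latter call was lost with library totals (-0.22, adjusted p 0.0891) and with limma on log2(TPM + 1) (-0.09, adjusted p 0.552). Mmp2, a matrix protease gene, had 83.3 and 106 CPM in shScr, 1066 and 1099 in shPkm1, and 43.4 and 43.6 in the shPkm2-labelled libraries, with log2 fold changes of 3.52 and -1.12. It thus had the same order of groups as Snai1 and Mdfi.

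Other known inhibitors of myogenic bHLH factors moved in both directions. Of 24 listed, 20 were tested; 7 were higher and 7 lower in shPkm1, 8 higher and 7 lower in the shPkm2-labelled libraries, and 8 higher and 8 lower between them, with medians of -0.08, 0.07 and -0.09. In the comparisons with shScr these counts lay near the 31.8% higher and 31.4% lower, and the 33.9% and 34.2%, of all tested genes. Between the Pkm hairpin groups they lay above the 25.7% higher and 27.3% lower of all tested genes. Ccnd1, whose product cyclin D1 restrains MyoD in dividing cells, had 20.3 and 22.9 CPM in shScr, 94.5 and 93.6 in shPkm1, and 178 and 183 in the shPkm2-labelled libraries. It rose by 2.12 (adjusted p 3.93e-09) and 3.06 (adjusted p 5.13e-11), in the order of the Id genes. Heyl, a Notch target, had 13.5 and 15.1 CPM, 41.1 and 42.4, and 4.80 and 5.01, with log2 fold changes of 1.54 in shPkm1 and -1.54 in the shPkm2-labelled libraries, in the order of Snai1. Hes1 was higher in shPkm1 than in the shPkm2-labelled libraries (-1.09, adjusted p 1.48e-05), and Hey1 was lower in the latter than in shScr (-1.03, adjusted p 0.000143).

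Among chromatin regulators that restrain MyoD, Suv39h1 had 30.1 and 39.7 CPM in shScr, 26.8 and 27.9 in shPkm1, and 75.2 and 71.8 in the shPkm2-labelled libraries. It rose by 1.07 in the shPkm2-labelled libraries (adjusted p 4.73e-06) and Sirt1 was higher there than in shPkm1 by 1.15 (adjusted p 8.51e-06). Hdac4 rose in shPkm1 by 0.70 (adjusted p 0.000706), from 16.4 and 20.6 CPM to 29.5 and 30.5. Hdac9 fell there by 1.67 (adjusted p 0.000114), with 56 and 75 counts in shScr against 25 and 22, and Hdac5 fell there by 0.39 (adjusted p 0.00397), a call lost without shPkm1 replicate 1 (-0.30, adjusted p 0.0781), with library totals (-0.19, adjusted p 0.107) and, with its sign reversed, with limma on log2(TPM + 1) (0.03). Fos, whose product opposes MyoD in growing myoblasts, fell in both (-0.85 and -0.96), at 111 and 97 counts in shScr and 61 to 74 in the other 4 libraries; its call in shPkm1 was lost with limma on log2(TPM + 0.1) (-0.44, adjusted p 0.0733).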

How the data were processed

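RNA levels of 6 C2C12 libraries were read from 1 deposited transcript table with 57920 rows. Per the file headers, it holds the authors' estimated counts and TPM values per transcript and library; 6 columns of FPKM and 9 of group means were not used. Per the submitters' processing notes, HISAT, StringTie, Bowtie, RSEM, DESeq2 and the build mm10 were involved; which tool made which value, and whether counting used strand, is not given in the sources used here. For every NCBI gene the deposited estimated counts of its transcripts were added up (17558 genes, 17445 with a symbol) and rounded; the deposited TPM values were summed and not rescaled. Genes without a symbol kept their number. Groups were taken from the sample titles.

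Genes were filtered with filterByExpr (minimum count 10, minimum total 15), scaled with TMM and tested with the quasi-likelihood F-test of edgeR 4.0.16 in R 4.3.3 over all 6 libraries, two-sided, with Benjamini-Hochberg adjustment over the 12643 genes tested and a threshold of 0.05. Isoforms were tested likewise over 33433 transcripts. The exact permutation test of 2 against 2 cannot go below 0.333 and was not used. Normalised CPM are counts scaled to the TMM-adjusted library size. A count of 3 or less was taken as the floor, and covers counting error only. Upstream windows were read from a RefSeq table.

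Alternatives were DESeq2 size factors, library totals, a filter at a mean of 50 counts, no filter, the test of DESeq2 1.42.0, limma 3.58.1 on log2(TPM + 1) and log2(TPM + 0.1), fits without each library in turn, fits of only the libraries compared, and a block for the replicate number. The test was checked on simulated counts.

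The members and the other lists were chosen with earlier results of these data known. The genes named are all 10 inhibitors, Pkm and its isoforms, Myod1, Myog and Mki67 and, from each other list and comparison, up to 3 risen and 3 fallen genes with the largest change among called genes whose mean was 50 counts or more. Genes outside that rule (among them Zeb2, Gdf5, Bmpr2, Acvr1, Bmpr1a, Smad5, Hdac4, Des and Ovol1, and the markers and genes without counts) were named after their values were seen.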

Additional observations from a re-analysis of the deposited data

How the results depend on the processing

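Of 134 values of the inhibitors under alternatives in each comparison, 130 kept their direction and side of the threshold in shPkm1, 129 in the shPkm2-labelled libraries and 128 between the Pkm hairpin groups; those that changed belong to Zeb1, Snai1, Snai2 and Msc and stand beside these genes, except under limma on log2(TPM + 0.1), which gave the same verdicts as with a pseudocount of 1: 0.72 (adjusted p 0.0238) for Msc and -0.07 (adjusted p 0.571) for Snai1 in the shPkm2-labelled libraries, and -0.28 (adjusted p 0.167) for Snai2 between the Pkm hairpin groups. Of the inhibitors only Zeb1 in shPkm1 was reversed (0.11 with library totals, 0.30 and 0.31 with limma on log2(TPM + 1) and log2(TPM + 0.1)). Of the other genes followed in this way the reversed ones were Hdac5 in shPkm1 (0.0300 and 0.0306 in the same limma fits), Ccn2 in shPkm1 (0.13 and 0.14) and Itga5 in the shPkm2-labelled libraries (0.0827 and 0.0832); the cause was not tested. The number of inhibitors called stayed within 1.5 times of 8, 8 and 9 under every alternative fitted on genes. The fit of single transcripts, compared after the data had been seen, called 4, 7 and 3 of the 7 inhibitors with a transcript at a mean of 50 counts or more. The cause was not tested. With the replicate block, 8, 8 and 9 inhibitors and 7922, 8566 and 6682 genes were called. Libraries of different groups share only a number: the deviations of same-numbered libraries correlated at -0.03, 0.04 and 0.05. When a library was left out, its group had 1 library, which was assumed to vary like the others. Depth limits Twist1 and Id4, which had at most 2 counts in a library, Msc, which had under 50 in each, and Mdfi outside shPkm1.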
